A study of Homo sapiens with 10 samples.

Results

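The leukaemia-associated antigen genes PRAME, WT1, BIRC5, HMMR and TERT were compared between K562 cells and the microvesicles that these cells release. Every probe set whose platform gene symbol is one of these names was taken, which gave 11 probe sets of 54613 and 5 genes of 19775. PRAME had 1 probe set, WT1, HMMR and TERT had 2 each and BIRC5 had 4. No probe set shared with another gene carried any of the names. K562 is an established chronic myeloid leukaemia line, and total RNA of 5 cell preparations and 5 microvesicle preparations was hybridised to 1 Affymetrix expression array each. Both groups come from this 1 line, with no treatment named. The labels speak of 5 independent experiments without saying whether a cell and a microvesicle array of the same number come from 1 culture. The p-values set a difference between the groups against the variation between such preparations only. Values are on the log2 scale, and a difference is the mean of microvesicles minus the mean of cells.

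Leukaemia-associated antigens are normal proteins that leukaemic cells make in larger amounts than most healthy tissue, so that T cells can recognise peptides cut from them. PRAME is a cancer-testis antigen that represses retinoic acid receptor signalling and serves as the substrate receptor of a CUL2 ubiquitin ligase. WT1 is a zinc finger transcription factor of kidney development and blood progenitors. BIRC5, or survivin, belongs to the inhibitor of apoptosis family and is a subunit of the chromosomal passenger complex of dividing cells. HMMR, also called RHAMM, binds hyaluronan and the mitotic spindle, and TERT is the catalytic subunit of telomerase.

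On GRCh38.p14 PRAME lies on chromosome 22 (22547701 to 22559265) and WT1 on chromosome 11 (32387775 to 32435539). BIRC5 lies on chromosome 17 (78214253 to 78225635). HMMR (163460632 to 163491941) and TERT (1253167 to 1295068) are both on chromosome 5.

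HMMR showed the largest difference among the antigens, and its promoter is shown because it holds a sequence also found upstream of other mitotic genes. The 250 bases before its annotated start (RefSeq, GRCh38.p14, chr5:163460382-163460631, plus strand) are given 5′ to 3′, with each TTTGAA in capitals. These letters are the core of the cell cycle homology region, an element known from promoters of mitotic genes.
HMMR: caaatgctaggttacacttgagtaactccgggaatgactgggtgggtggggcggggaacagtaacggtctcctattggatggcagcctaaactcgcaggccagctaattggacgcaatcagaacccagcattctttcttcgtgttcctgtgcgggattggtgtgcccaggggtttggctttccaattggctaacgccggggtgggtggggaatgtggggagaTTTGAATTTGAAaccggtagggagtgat
The motif stood there 2 times in a row, beginning 28 and 22 bases before the start. Read on both strands (TTTGAA or TTCAAA), it was found in 13.34% of 34788 windows of this length over all promoters. It was present in 2 of 3 listed PRAME windows, 1 of 4 WT1 windows and 0 of 1 TERT window. BIRC5 had no listed window and was not examined. Among the spindle and hyaluronan partners of HMMR it was in 3 of 13 genes with a window, and among chromosomal passenger genes in 2 of 7. These counts are over genes, some with several windows, while the share above is over windows. The partner with a match that the arrays did not measure was the hyaluronan synthase HAS1. The 30 bases around it are shown for those of these genes that the arrays measured, read along the strand of each gene, for comparison with HMMR.
CDCA8 (chr1:37692481-37692510): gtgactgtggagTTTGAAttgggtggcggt
INCENP (chr11:62123981-62124010): ggattggctgagccttcagtTTTGAAaatc
KIF11 (chr10:92593090-92593119): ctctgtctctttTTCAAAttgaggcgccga
PLK1 (chr16:23678848-23678877): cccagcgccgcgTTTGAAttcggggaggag
The motif begins between 10 and 29 bases before the start in these 4 genes. CDCA8, INCENP and KIF11 fell in microvesicles and PLK1 did not pass the test, with the values given further on. AURKB, BUB1, KIF20A, SGO1, BARD1, BRCA1 and NUMA1 also fell and had no match in their windows. In KIF11 the letters are on the opposite strand and read TTCAAA. A match describes these letters only.

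Of the 11 antigen probe sets, 8 were lower and 0 were higher in microvesicles at a limma adjusted p under 0.05. At an unadjusted p under 0.05 the counts were 8 lower and 1 higher, and an exact rank sum test with adjustment gave 8 and 0. By the adjusted limma test, 27.0% of all probe sets were called lower and 35.4% higher, 62.4% in either direction. Shares over all probe sets are not at hand for the unadjusted and rank sum counts, so nothing is read from those counts. The median change of the antigen probe sets was -0.93, against 0.27 over all probe sets. At least 2-fold lower and past the threshold were 4 of the 11, against 18% of all probe sets. The groups did not overlap in 6 of the 11, against 45.9% of all probe sets. In bulk RNA of this kind, fewer vesicles holding an mRNA and less of it in each vesicle cannot be told apart. The changes of the arrays as a whole depended on signal level, and after a loess normalization by level the antigen counts were 5 lower and 1 higher. The background was then 22.2% lower and 19.4% higher.

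**Figure D1:**
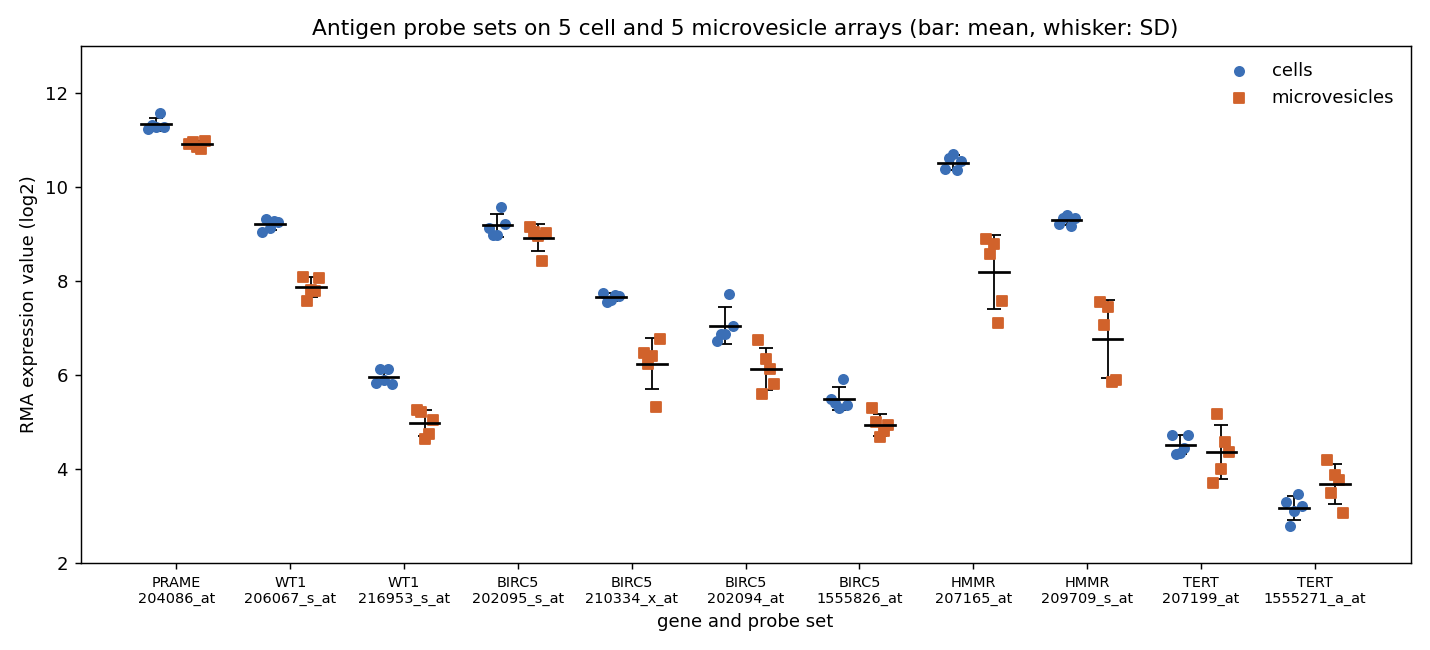
RMA expression values (log2, vertical axis) of the 11 antigen probe sets on 5 cell arrays (circles) and 5 microvesicle arrays (squares), with the mean as a bar and the SD as a whisker. Both HMMR probe sets and both WT1 probe sets lie lower on every microvesicle array than on any cell array, while BIRC5 202095_s_at and both TERT probe sets overlap.

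The arrays themselves differed between the groups. Array medians were 4.08 to 4.12 in cells and 4.22 to 4.28 in microvesicles, and array SDs 2.33 to 2.36 and 1.89 to 1.99. The 3′ probe set of ACTB exceeded its 5′ probe set by 2.26 to 2.57 in cells and by 2.72 to 3.64 in microvesicles, a control of RNA integrity. For GAPDH the same difference was 0.37 to 0.54 in cells and 0.50 to 0.83 in microvesicles. The part of signal scale and of RNA integrity in the results was not tested. Of 10 erythroid and K562 marker genes 9 were measured, with a mean level of 8.87 to 9.24 on cell arrays and 7.74 to 8.95 on microvesicle arrays. The 7 lymphocyte markers measured averaged 4.26 to 4.52 in cells and 4.71 to 4.97 in microvesicles, 7 monocyte and granulocyte markers 3.99 to 4.38 and 4.18 to 4.61, and 6 stromal and endothelial markers 3.89 to 4.22 and 4.34 to 4.85. RMA values have no zero and no detection call, so none of these markers can be called absent. CD3D (8.18 in cells) and LYZ (7.50 in cells) stood well above the other markers of those cell types, and LYZ fell to 4.85 in microvesicles. The part of other cell types in the results was not tested.

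PRAME was bright in both kinds of sample and slightly lower in microvesicles. Its probe set 204086_at read 11.24, 11.31, 11.28, 11.58 and 11.28 on the 5 cell arrays. On the microvesicle arrays it read 10.92, 10.95, 10.86, 10.82 and 10.99. Every microvesicle array lay below every cell array, and the microvesicle values stayed closer together than those of any other antigen probe set. Means were 11.34 ± 0.14 and 10.91 ± 0.069 (SD, n = 5 each), a change of -0.43 ± 0.15 (SE; 1.35-fold lower, limma adjusted p = 0.0217). The call rested on cells replicate 4, the highest array, without which the change was -0.37 (limma adjusted p = 0.0631), and with array weights it was -0.41 (0.0518). The sign depended on the scaling, with -0.59 after centring each array on its median, -0.069 after a second quantile normalization and 0.26 after loess (limma adjusted p = 0.00442, 0.74 and 0.216).

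The genes around PRAME moved in both directions. Of the 9 partner genes, 5 fell and 3 rose, where 30.8% of all genes (each by its brightest probe set) fell and 34.6% rose, and the list median was -0.73 against 0.20 over all genes. The polycomb subunits EED, SUZ12 and EZH2 changed by -1.55, -1.26 and -0.73, the ligase scaffold CUL2 by -1.20 and its adaptor ELOC by -0.74. The mean of the 3 SUZ12 probe sets changed by less, -0.34 (limma adjusted p = 0.0322). The other adaptor, ELOB, rose by 0.61, and the nuclear receptors RXRA and RARA rose by 1.77 and 0.71. The ring finger subunit RBX1 stood at -0.33 and did not pass (limma adjusted p = 0.124). After loess, where 18.9% of all genes fell and 26.6% rose, 3 genes of this list fell and 3 rose, with EZH2 at -0.0054 and ELOC at -0.043.

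WT1 was lower in microvesicles in both of its probe sets. The brighter one, 206067_s_at, read 9.05, 9.32, 9.12, 9.28 and 9.25 in cells. In microvesicles it read 8.09, 7.58, 7.81, 7.79 and 8.06. The highest microvesicle array was thus about 1 log2 unit below the lowest cell array. Means were 9.20 ± 0.11 and 7.87 ± 0.21 (SD, n = 5 each), a change of -1.34 ± 0.16 (2.53-fold lower, limma adjusted p = 1.50e-05). The dimmer probe set 216953_s_at ran from 5.82 to 6.13 in cells and from 4.64 to 5.25 in microvesicles. It changed by -0.98 ± 0.17 (1.97-fold lower, limma adjusted p = 0.000395). Both kept their direction and their call under every alternative that gave a value, with the smallest changes at -0.59 and -0.63 after a second quantile normalization.

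Among 10 measured WT1 cofactors and zinc finger relatives, 4 fell and 2 rose, with a median of -0.0019, beside 30.8% and 34.6% of all genes. The early growth response factor EGR1, whose zinc fingers resemble those of WT1, changed by -4.35 ± 0.24 (limma adjusted p = 2.82e-08). The transcriptional coregulator CITED2 changed by -1.89 ± 0.31, and its mean over 3 probe sets was -0.57. The rises were those of EGR3 (1.07 ± 0.23, at 2.23 in cells) and of PAWR, a WT1-binding proapoptotic factor (0.66 ± 0.17). After loess 2 fell and 2 rose, beside 18.9% and 26.6% of all genes. The rises were then PAWR (1.04) and WTAP (0.52, limma adjusted p = 0.0151), which stood at -0.20 in the deposited values. EGR3 no longer passed (0.55, limma adjusted p = 0.0552).

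BIRC5 gave different answers from its 4 probe sets. The brightest, 202095_s_at, read 9.14, 8.98, 8.99, 9.58 and 9.22 in cells and 9.15, 9.04, 8.96, 8.42 and 9.02 in microvesicles. The groups overlapped, and 3 of the 5 microvesicle arrays lay within the range of the cell arrays. The change was -0.26 ± 0.19, with a 95% interval from -0.67 to 0.14 (limma adjusted p = 0.23). After loess this probe set was called higher in microvesicles (0.47, limma adjusted p = 0.0454), and after a second quantile normalization it stood at 0.40 (0.106).

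The probe set 210334_x_at showed the largest fall for BIRC5. It read 7.74, 7.55, 7.59, 7.70 and 7.69 in cells and 6.46, 6.25, 6.40, 5.33 and 6.78 in microvesicles. No microvesicle array reached the cell arrays, and replicate 4 was the lowest by far. The change was -1.41 ± 0.23 (2.66-fold lower, limma adjusted p = 0.000207), -0.75 after loess (0.0161) and -0.56 after a second quantile normalization (0.132). The remaining probe sets 202094_at and 1555826_at changed by -0.93 ± 0.24 and -0.55 ± 0.18 (limma adjusted p = 0.0055 and 0.0165), with groups that overlapped. Neither passed after loess (-0.30 and -0.33) or after a second quantile normalization, and 1555826_at did not pass without cells replicate 4 (-0.45, limma adjusted p = 0.0504). The mean of the 4 probe sets changed by -0.79 (limma adjusted p = 0.00093, adjusted over genes).

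The disagreement between BIRC5 probe sets was tested as the difference between 2 probe sets on the same array, which does not depend on any constant shift of an array. The difference of 210334_x_at from 202095_s_at was -1.53 ± 0.21 over the 5 cell arrays and -2.68 ± 0.31 over the 5 microvesicle arrays (mean and SD, 2-sided exact permutation p = 0.00794, the smallest possible; adjusted p = 0.0317 over 6 pairs of probe sets). These differ by -1.15 ± 0.17 (SE). For 202094_at the value was -0.66 ± 0.24 (exact permutation p = 0.0238, adjusted p = 0.0357) and for 1555826_at -0.29 ± 0.12 (exact permutation p = 0.0714, adjusted p = 0.0857). Where the BIRC5 probe sets lie along the transcripts was not known. The parts of RNA integrity and of signal from other transcripts in their disagreement were not tested. The WT1 and HMMR probe sets also differed, by less. The WT1 probe set 216953_s_at fell 0.36 ± 0.15 less than 206067_s_at in the deposited values (exact permutation p = 0.0159, adjusted p = 0.0317). The order turned after loess (-0.65 against -0.60) and after a second quantile normalization (-0.63 against -0.59), so this difference depended on the scaling. The change of the HMMR probe set 209709_s_at minus that of 207165_at was -0.20 ± 0.079 (exact permutation p = 0.0159, adjusted p = 0.0317). The TERT pair did not pass (0.66 ± 0.41, exact permutation p = 0.175), so that 4 of the 6 pairs passed in all. The count was 1 without cells replicate 1, 2 or 5, and 2 without cells replicate 3 or 4. It was 4 or 5 without any 1 microvesicle array.

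The mitotic partners of BIRC5 were mostly lower in microvesicles. Of 8 genes of the chromosomal passenger complex and its docking factors, 7 fell and 0 rose by limma, with a median of -1.24. Counts were the same at an unadjusted p under 0.05, and the exact rank sum test gave 6 and 0. Shares over all genes are not at hand for these other tests. Over all genes 30.8% fell and 34.6% rose by limma, with a median of 0.20. The kinase AURKB, the catalytic subunit, changed by -0.81 ± 0.22, and the scaffold INCENP and the targeting subunit CDCA8 by -0.94 ± 0.24 and -1.39 ± 0.29. The kinases BUB1 and HASPIN, which mark the centromere for the complex, changed by -2.19 ± 0.33 and -1.52 ± 0.41, though the mean of 5 BUB1 probe sets changed by -0.74. SGO1, the protector of cohesion, changed by -1.08 ± 0.19 and the kinesin KIF20A by -2.30 ± 0.41. RCC2 did not pass (-0.25 ± 0.15, limma adjusted p = 0.162). After loess 6 fell and 1 rose, beside 18.9% and 26.6% of all genes. AURKB then no longer passed (-0.14), and RCC2 was the rise (0.47). After a second quantile normalization 3 fell and 0 rose, beside 3164 and 5021 of all 19775 genes, and AURKB stood at 0.062.

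Of the 8 other inhibitor of apoptosis genes, antagonists and caspases measured, 6 fell and 1 rose, with a median of -0.91. The shares over all genes were 30.8% and 34.6%. The caspase inhibitor XIAP changed by -2.07 ± 0.19 and the giant ubiquitin ligase BIRC6 by -2.06 ± 0.22, and the mean of 7 XIAP probe sets by -1.24. BIRC7, or livin, rose by 1.13 ± 0.19 from 4.50 in cells. The antagonist DIABLO did not pass (-0.17 ± 0.14, limma adjusted p = 0.292). Of the falls, HTRA2 (-0.65) and CASP9 (-0.38) turned to 0.079 and 0.33 after loess, and CASP9 stood at -0.010 as the mean of its probe sets. After loess, 4 genes of the list fell and 2 rose, beside 18.9% and 26.6% of all genes.

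HMMR fell most, in both probe sets and by similar amounts. The probe set 207165_at read 10.38, 10.61, 10.71, 10.36 and 10.55 in cells. In microvesicles it read 8.89, 8.57, 8.78, 7.11 and 7.59. All microvesicle arrays were at least 1 log2 unit below the cell arrays, and replicates 4 and 5 lay lower than the other 3. Means were 10.52 ± 0.15 and 8.19 ± 0.79 (SD, n = 5 each), a change of -2.33 ± 0.31 (5.04-fold lower, limma adjusted p = 3.18e-05). The probe set 209709_s_at read 7.56, 7.06, 7.44, 5.85 and 5.91 in microvesicles, the same arrays being low, against 9.17 to 9.40 in cells. It changed by -2.53 ± 0.31 (5.78-fold lower, limma adjusted p = 2.07e-05). The SD over microvesicle arrays was 5.22 and 8.43 times that over cell arrays. Microvesicles replicates 4 and 5 had ACTB 3′ minus 5′ differences of 3.64 and 3.13, against 2.72 to 3.20 for the other 3, and the part of RNA integrity was not tested. Leaving out any 1 array gave -2.06 to -2.51 and -2.30 to -2.73. Both probe sets kept their call after loess (-1.61 and -1.81) and after a second quantile normalization (-1.72 and -1.81).

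**Figure D2:**
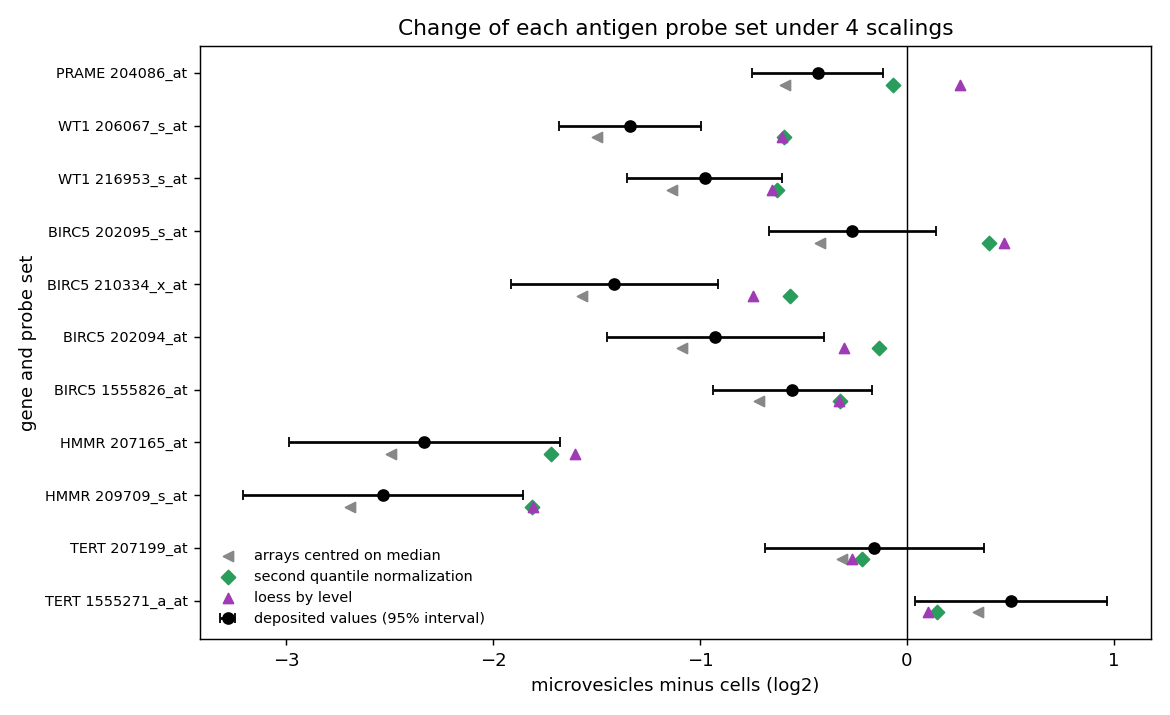
Change of each antigen probe set, microvesicles minus cells on the log2 scale, in the deposited values (black points with the 95% interval of the limma fit) and under the other 3 scalings, with n = 5 arrays per group. The WT1 and HMMR changes stay below 0 in all 4, while PRAME and BIRC5 202095_s_at cross 0.

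Of the 16 measured spindle and hyaluronan partners of HMMR, 7 fell and 1 rose, with a median of 0.10. The shares over all genes were 30.8% and 34.6%. The motor KIF11 changed by -2.38 ± 0.26 and BARD1, the partner of BRCA1, by -1.84 ± 0.36. FAM83D, TPX2, BRCA1, NUMA1 and AURKA also fell, between -1.45 and -0.71. After loess TPX2 (-0.69), BRCA1 (-0.43) and AURKA (0.020) did not pass (limma adjusted p = 0.161, 0.0617 and 0.946). NUMA1 did not pass after loess (-0.32) or as the mean of its 5 probe sets (-0.19, limma adjusted p = 0.138). PLK1 (0.33) and DYNLL1 (0.026) did not pass, but after loess both were called higher (0.47 and 0.72). In all 3 genes fell and 2 rose after loess, beside 18.9% and 26.6% of all genes. After a second quantile normalization 1 fell and 0 rose, beside 3164 and 5021 of all 19775 genes. The rise in the deposited values was that of the hyaluronan receptor LYVE1 (0.72 ± 0.24, at 3.27 in cells), which did not pass after loess (0.35). CD44, the main hyaluronan receptor, stood at 3.62 in cells and 3.92 in microvesicles, a change of 0.29 that did not pass (limma adjusted p = 0.181). Its 13 probe sets averaged a change of 0.75 (limma adjusted p = 0.000801). The synthases HAS2 and HAS3 and the genes STAB2, HYAL2 and CEMIP did not pass, with changes of 0.18 to 0.40. As means of their probe sets HAS2 (0.45), HAS3 (0.45) and CEMIP (0.58) were called higher (limma adjusted p = 0.00525, 0.0353 and 0.00427). By such means 6 genes of the list fell and 5 rose, beside 5880 and 8080 of all 19775 genes, and nothing particular to the list is read from these rises.

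TERT was dim in both kinds of sample and its probe sets pointed in opposite directions. The probe set 207199_at read 4.72, 4.33, 4.35, 4.46 and 4.74 in cells and 3.69, 5.18, 4.002, 4.58 and 4.36 in microvesicles. Microvesicle values lay on both sides of all cell values, and the change was -0.16 ± 0.25 with a 95% interval from -0.68 to 0.37 (limma adjusted p = 0.584). Without microvesicles replicate 1, the lowest array, it was 0.011. The probe set 1555271_a_at ran from 2.79 to 3.46 in cells, below the array medians. In microvesicles it read 4.20, 3.48, 3.88, 3.76 and 3.07. It stood 0.50 ± 0.22 higher with a limma adjusted p of 0.0566, and the groups overlapped through microvesicles replicate 5. Without that array the change was 0.66 (limma adjusted p = 0.0105), and after loess it was 0.10 (0.747). The files carry no detection call, and whether TERT exceeded the background of the arrays is not known.

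Of 10 other genes of the telomerase holoenzyme and its assembly measured, 6 fell and 0 rose by limma, with a median of -0.73. At an unadjusted p under 0.05, and by the exact rank sum test, the counts were also 6 and 0, with no shares over all genes at hand. Over all genes 30.8% fell and 34.6% rose by limma. The assembly factors NAF1 and SHQ1 changed by -2.30 ± 0.35 and -1.70 ± 0.23. The core proteins GAR1 and NHP2 changed by -0.99 and -0.46, while NOP10 (-0.13) and the trafficking factor WRAP53 (0.19) did not pass. After loess 3 fell and 3 rose, beside 18.9% and 26.6% of all genes, the rises being WRAP53 (0.91), RUVBL2 and NOP10. NHP2 turned to 0.22 and did not pass. After a second quantile normalization 3 genes of the list fell and 1 rose, beside 3164 and 5021 of all 19775 genes.

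Telomere binding proteins were lower too. Of 8 shelterin and CST genes, 7 fell and 0 rose by limma, with a median of -1.06. The counts were the same at an unadjusted p under 0.05 and by the exact rank sum test, for which no shares over all genes are at hand. Over all genes 30.8% fell and 34.6% rose by limma. TERF1 and TERF2, which bind double-stranded repeats, changed by -2.03 ± 0.25 and -1.66 ± 0.25, and POT1, which binds the single-stranded end, by -1.64 ± 0.24. CTC1, TINF2, ACD and TERF2IP changed by -1.23, -0.88, -0.82 and -0.52, while STN1 stood at -0.0021 and did not pass. After loess 4 fell and 1 rose, STN1 (0.58), beside 18.9% and 26.6% of all genes, and TERF2IP stood at 0.21. After a second quantile normalization 3 fell and 1 rose, beside 3164 and 5021 of all 19775 genes, and ACD stood at 0.064. The mean over 3 probe sets of CTC1 was -0.17 and did not pass, and that of STN1 was called higher (0.56, limma adjusted p = 0.0126). Probe set means of TERF2 (-0.86) and TINF2 (-0.54) were smaller than the changes above and passed.

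**Figure D3:**
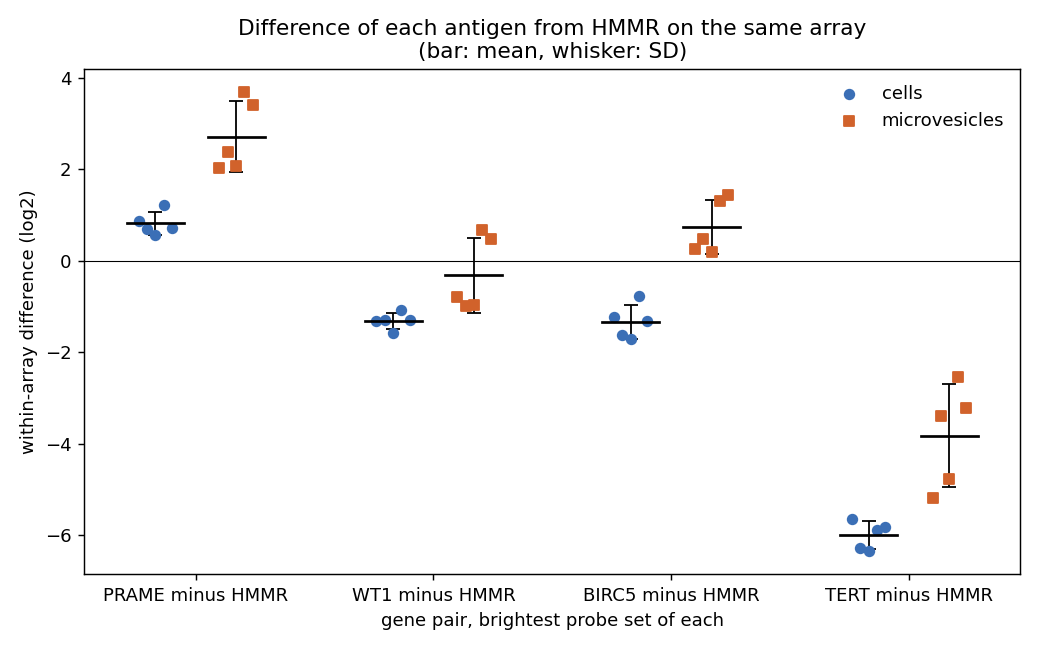
Within-array difference (log2, vertical axis) of PRAME, WT1, BIRC5 and TERT from HMMR, each by its brightest probe set, on 5 cell arrays (circles) and 5 microvesicle arrays (squares), with the mean as a bar and the SD as a whisker. The difference is higher in microvesicles in all 4 pairs without overlap of the groups, TERT being a dim probe set that may lie at background.

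Whether the antigens changed unequally was tested on the difference between 2 genes on the same array, with each gene read from its brightest probe set. Of 10 gene pairs, 7 passed at an adjusted p under 0.05 by 2-sided exact permutation. HMMR fell more than PRAME by 1.90 ± 0.37 (SE), more than WT1 by 0.996 ± 0.38 and more than BIRC5 by 2.07 ± 0.31. Each of these had an exact permutation p of 0.00794, the smallest possible with 5 against 5, and an adjusted p of 0.0132. WT1 fell more than PRAME by 0.91 ± 0.11 and more than BIRC5 by 1.07 ± 0.17, with the same exact permutation p and adjusted p. The remaining 2 were pairs with TERT, in which the change of HMMR minus that of TERT was -2.18 ± 0.52 and that of WT1 minus TERT -1.18 ± 0.35. As TERT may lie at the background of the arrays, where a fall could not be seen, these pairs do not show unequal change of the mRNAs and their p-values are not used. PRAME and BIRC5 differed by -0.17 ± 0.13 (exact permutation p = 0.206, adjusted p = 0.258). After loess the 5 called pairs without TERT kept their direction and their call (each exact permutation p = 0.00794, adjusted p = 0.0159). With the mean of all probe sets of each gene all 10 pairs passed, and the difference of PRAME and BIRC5 turned to 0.36. The change of WT1 minus that of BIRC5 then shrank to -0.37. The BIRC5 probe set 210334_x_at alone changed by -1.41, against -1.34 for WT1 206067_s_at. The size of the difference between WT1 and BIRC5 thus depended on the BIRC5 probe set read.

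The genes whose pattern over the 10 arrays was most like that of each antigen were found by Pearson's r among 10913 genes that varied by an SD of at least 0.5. These values describe 10 arrays that share the difference between the groups, so r over deviations from the group means is given beside each. It comes from the same arrays that picked the genes and is no separate check. How high an r such a choice from 10913 genes gives by itself was not tested. The SD filter was not applied to the antigens, of which PRAME, BIRC5 and TERT (SD 0.25, 0.29 and 0.41) lay below it. HMMR was followed by SLC39A8, RSRC2 and SLC35F5 (r = 0.995, 0.995 and 0.994), and within groups r stayed at 0.97 to 0.99. For WT1 they were SLC39A6, CSPG5 and G6PC3 (all r = 0.994, within groups 0.87 to 0.90). PRAME was nearest to NFIC, LAPTM5 and ARPP19 (r = 0.968, 0.967 and 0.964, within groups 0.76 to 0.84). BIRC5 was nearest to RDH13, LLPH and PTPN7 (r = 0.957, 0.919 and 0.909, within groups 0.89 to 0.96), and TERT to NFE2L1, LINC02615 and LIN7B (r = 0.902, 0.883 and 0.866, within groups 0.86 to 0.92). The 2 HMMR probe sets had an r of 0.98 within groups, and the 2 WT1 probe sets 0.32.

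**Figure D4:**
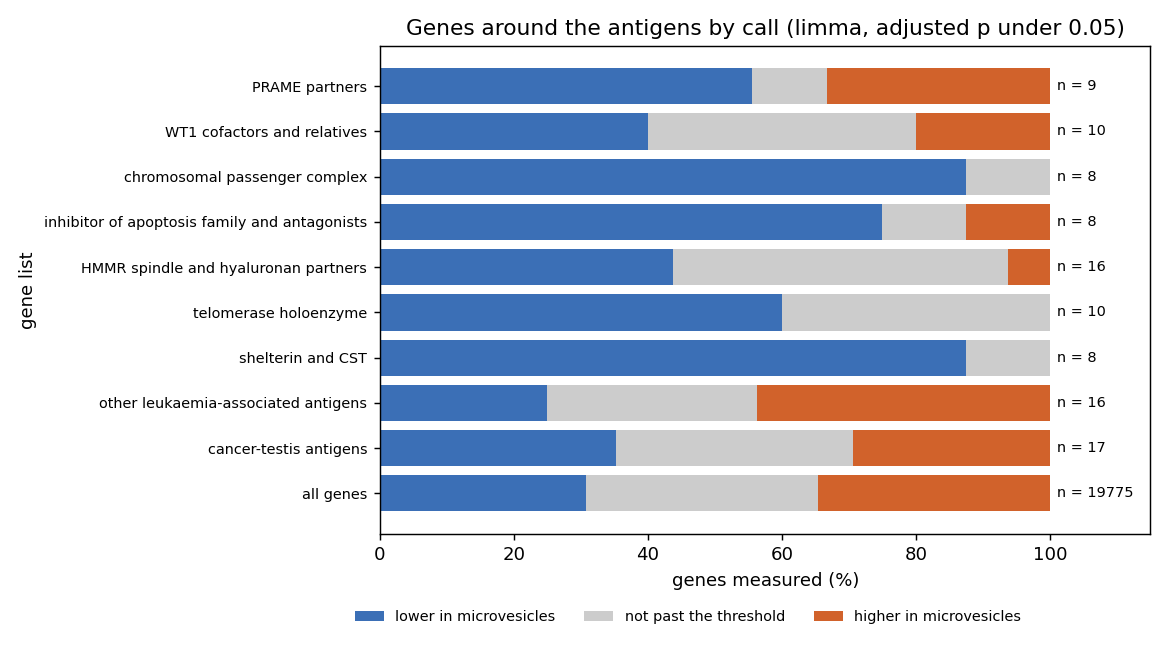
Share of measured genes (percent, horizontal axis) in each gene list that was lower, not past the threshold, or higher in microvesicles by limma with each gene read from its brightest probe set; n is the number of genes measured. The chromosomal passenger and shelterin lists have 7 of 8 genes lower, and the bar of all genes shows 30.8% lower and 34.6% higher.

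Of 16 other leukaemia-associated antigens measured, 4 fell and 7 rose, with a median of 0.37. Over all genes 30.8% fell and 34.6% rose with a median of 0.20, and nothing particular to the list is read from its count. The scaffold SPAG9 and the mitotic cyclin CCNB1 changed by -1.95 ± 0.21 and -1.56 ± 0.34. MUC1, a membrane mucin, changed by -1.33 ± 0.21. The granule enzyme MPO and the matrix protein FMOD rose by 1.16 ± 0.31 and 1.15 ± 0.25, from 3.05 and 3.86 in cells, both below the array median. NPM1, a nucleolar protein at 13.21 in cells, stood at -0.29 and did not pass (limma adjusted p = 0.106), while the mean of its 3 probe sets was called lower (-0.46, 0.0073). After loess 3 fell and 5 rose, beside 18.9% and 26.6% of all genes.

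Of 17 other cancer-testis antigen genes measured, 6 fell and 5 rose, with a median of 0.15, near the 30.8% and 34.6% of all genes. MAGEB2 and the sperm protein gene SPA17 changed by -2.12 ± 0.36 and -1.72 ± 0.23, and MAGEC1 by -1.60 ± 0.23. CTCFL, a testis paralog of the insulator factor CTCF that was bright in cells (9.61), changed by -0.94 ± 0.18 and did not pass after loess (-0.21). ACTL8 and the synaptonemal gene SYCP1 rose by 1.17 ± 0.35 and 0.98 ± 0.28, the latter from 2.07 in cells. After loess 4 fell and 1 rose, beside 18.9% and 26.6% of all genes, the rise being that of ACTL8 (1.46). MAGE genes are close paralogs, and the deposited values do not show how far their probe sets tell them apart.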

How the data were processed

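Each of 5 K562 cell and 5 microvesicle RNA preparations was hybridised to an Affymetrix HG-U133 Plus 2.0 array. Per the submitters' processing notes the deposited log2 values were made with RMA, in a version not given in the sources used here. The deposited distributions differ between the groups in median and SD, and whether all arrays were normalized together is not known. Each array was made from the same mass of RNA, per the labels' protocols, so total RNA was not measured. Precision is limited by the number of arrays. Of 54630 probe sets, 17 controls were not tested. Symbols were read from the platform table, and 41037 of 41091 single-gene probe sets were named through their gene number.

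Groups were compared by limma (3.58.1, R 4.3.3; lmFit and eBayes, 2-sided) with Benjamini-Hochberg adjustment over 54613 probe sets. Genes of lists were read from their brightest probe set. Within-array differences were compared by exact permutation over 252 regroupings. Named were all members, all genes of lists of up to 9 (marker lists excepted; otherwise the 2 largest called falls and rises of a list) and the nearest patterns; further list genes were chosen after their values were seen. The members and lists were chosen with earlier results of these data known. Alternatives covered scaling, dim filters, variance models, the rank sum test, probe set summaries, the replicate number and each array left out. Listed genes without a single-gene probe set here were not analysed. Sequences are RefSeq's (GRCh38.p14). The limma step was tested on simulated data.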

Additional observations from a re-analysis of the deposited data

Results flagged for a closer look

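In 22 groups of 5 arrays (11 probe sets in cells and in microvesicles), 2 held an array far from the other 4 by Dixon's criterion, which chance meets in about 1 of 20 groups. PRAME 204086_at stood at 11.58 in cells replicate 4, with the next array at 11.31. BIRC5 202095_s_at stood at 8.42 in microvesicles replicate 4, with the next array at 8.96.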

How the results depend on the processing

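Of the 11 antigen probe sets, 8 were called lower with the deposited scale, 5 after loess and 4 after a second quantile normalization, and 6 to 8 with any 1 array left out. Of all probe sets 27.0% were called lower with the deposited scale and 22.2% after loess. Such shares are not at hand for the other settings. The count called higher was 0, and it was 1 after loess (BIRC5 202095_s_at), 1 with array weights (TERT 1555271_a_at) and 0 to 1 with an array left out. With 1 value per gene, 3 of the 5 genes were lower by the brightest probe set and 4 by the mean of probe sets, and 0 were higher by either. By the mean of probe sets 5880 of all 19775 genes were lower and 8080 higher. PRAME turned to 0.26 after loess, BIRC5 202095_s_at to 0.40 and 0.47 after quantile normalization and loess, TERT 207199_at to 0.011 without microvesicles replicate 1 (-0.36 to 0.011 over the arrays left out), and TERT to 0.17 with the mean of its probe sets (from -0.16). The cause was not tested. Over the 9 gene lists, 52 of 102 genes fell and 19 rose, 32 and 20 after loess, and 25 and 13 after quantile normalization. Over all 19775 genes 6095, 3747 and 3164 fell and 6852, 5253 and 5021 rose.

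Correlations of deviations between same-numbered arrays were weak (-0.025 to 0.11), while 4 of 5 cell arrays correlated best with their own number. These values do not settle whether equal numbers mark 1 culture. With the replicate block 7 of the 8 probe sets remained called lower, and PRAME did not (limma adjusted p = 0.0641). The block version of the pair tests flips signs over 5 numbers, cannot go below an exact p of 0.0625 and so called 0 gene pairs of the 7 and 0 probe set pairs of the 4; it says nothing about stability. With an array left out, 6 to 8 gene pairs and 1 to 5 probe set pairs passed. Levels near the array median, as for TERT, limit what can be detected.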
